A study of Mus musculus with 12 samples.

Results

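Polycomb repressive complex 1 (PRC1) was examined through the RNA of 9 of its subunit genes in mouse undifferentiated spermatogonia. The genes were the rows of the deposited expression table with the symbols *Ring1*, *Rnf2*, *Bmi1*, *Pcgf1*, *Pcgf2*, *Pcgf6*, *Cbx2*, *Cbx7* and *Cbx8*, and all 9 were found among its 21859 genes. All 9 were also among the 16932 genes that passed the filter on low values and were tested. The study examined H3K27me3, H3K9me3 and gene expression in spermatogonia of cryptorchid testes, and the RNA is the subject here. Unilateral cryptorchidism was induced by fixing the left testis to the abdominal wall of 8 to 10-week-old males, and the right testis stayed in the scrotum. The GFRa1-EGFP+/KIT- cells of both were sorted 10 days later. Both groups came from GFRa1-EGFP reporter males, and the genotype field of the labels reads WT for the controls and Cryptorchid for the rest. In these mice EGFP follows *Gfra1*, the gene of the GDNF receptor, and KIT is the receptor that marks differentiating spermatogonia. There were 5 control and 7 cryptorchid libraries, each made by Smart-seq2 from RNA equal to about 200 cells. Which libraries came from the same mouse is not stated, and nothing says that every library came from a different animal, so *P*-values measure the spread between these libraries. Every mouse had 1 operated testis, so each control testis came from an operated animal. The testes were digested at 32°C in the control and at 37°C in the cryptorchid group, and the effect of that step cannot be told apart from the effect of the surgery.

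PRC1 is an E3 ligase complex that places ubiquitin on a lysine of histone H2A (H2AK119ub), a mark of repressed chromatin. Its core is a RING protein, RING1 or RNF2 (also called RING1B), bound to one of the PCGF proteins, which decides the kind of complex. Canonical complexes hold BMI1 (PCGF4) or PCGF2 with a CBX protein whose chromodomain binds H3K27me3, the mark made by PRC2, and variant complexes hold other PCGF proteins with RYBP or YAF2 in place of a CBX protein. In spermatogonia PRC1 is known to repress somatic genes and to prepare genes for later germ cell stages.

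The number of reads on genes was 4511730 to 24345368 per control library and 3306771 to 20027902 per cryptorchid library. Markers of undifferentiated spermatogonia were present in both groups, with a sum over 14 genes of 1225 to 1813 RPM (reads scaled to the library total) in control and 1378 to 2138 RPM in cryptorchid libraries. All 8 spermatid markers had a lower mean in the cryptorchid group, and 4 of them had an unadjusted limma *P*-value under 0.05. Their sum was 507 to 2750 RPM in control and 14.5 to 1808 RPM in cryptorchid libraries. The sums for differentiating spermatogonia were 121 to 203 RPM and 145 to 327 RPM, those for spermatocytes 235 to 370 RPM and 300 to 526 RPM, and those for Sertoli cells 43.9 to 226 RPM and 38.3 to 236 RPM. Leydig, myoid, macrophage, lymphocyte and endothelial lists each summed to at most 47.8 RPM. All 5 endothelial markers had a higher mean in the cryptorchid group, 2 of them with an unadjusted limma *P*-value under 0.05, and their sum was 10.0 to 29.2 RPM in control and 18.4 to 47.5 RPM in cryptorchid libraries. Higher at that level were also 1 myoid, 1 differentiating and 1 undifferentiated marker, and 1 undifferentiated marker was lower. *Cyp11a1*, *Hsd3b1*, *Cyp17a1*, *Lhcgr*, *Acta2*, *C1qa*, *Cd3e*, *Cd3g*, *Nkg7*, *Emcn* and the Sertoli cell gene *Amh* had no read in 6 or more of the 12 libraries. The part of other cells in the results below was not tested. The replicates formed a set numbered 1 to 3 and a set numbered 4 and above, which the labels do not call batches. The first set had 6800360 to 24345368 reads on genes and the second 3306771 to 5481947, and among genes with 1 to 20 reads the share of even read numbers was 53.2% to 60.8% in the first and 48.2% to 50.5% in the second. Values within each set are given beside the pooled ones.

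The 9 genes lie on 7 chromosomes of GRCm38 (mm10). *Cbx2* and *Cbx8* are neighbours on chromosome 11, with *Cbx2* at chr11:119022962-119031270 on the plus strand and *Cbx8* at chr11:119036305-119040969 on the minus strand, 5034 bases apart. *Pcgf2* is on the same chromosome at chr11:97688823-97700497 on the minus strand. The others are *Ring1* at chr17:34020792-34024680, *Rnf2* at chr1:151458004-151500955, *Pcgf6* at chr19:47033617-47050906 and *Cbx7* at chr15:79915807-79971119, on the minus strand, and *Bmi1* at chr2:18677018-18686629 and *Pcgf1* at chr6:83077869-83080855, on the plus strand. Exons of *Rnf2* overlap those of *Trmt1l* by 158 bases and exons of *Cbx7* overlap those of *Apobec3* by 100 bases, both on the opposite strand. Whether the counting used strand is not stated, so reads from these stretches are uncertain.

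RefSeq promoters (GRCm38.p6, from 250 bases before to 50 bases after the start) were at hand for 7 of the 9 genes, without *Cbx2* and *Pcgf1*. They were searched on both strands for the E-box CACGTG and the E2F core TCCCGC, which are bound by the MGA-MAX and E2F6 partners of the PCGF6 complex, and for the heat shock element GAANNTTC. The E-box was found in 3 of the 7 promoters (*Bmi1*, *Pcgf2* and *Cbx8*), against 7.15% of all 32851 promoters. The E2F core was found in 3 of 7 (*Rnf2*, *Pcgf2* and *Cbx8*), against 20% of all. The heat shock element, present in 7.86% of all promoters, was in 0 of the 7. The promoters held 10 (*Pcgf2*) to 37 (*Ring1*) CpG dinucleotides, and the median over all promoters was 7. The E-box and the E2F core each contain a CpG, and no rate for promoters of like CpG content was computed. The rates over all promoters are therefore no matched background. A match is only a run of letters and does not show that a factor binds.

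The promoters of *Rnf2* and *Bmi1* are shown because their RNA varied most alike among the members, and that of *Cbx7* because its RNA is set against that of *Cbx2*. Each is written 5′ to 3′ on the strand of the gene, with E-boxes and E2F cores in capitals. *Rnf2* has E2F cores at bases 23 to 28 and 281 to 286, and *Bmi1* has an E-box at bases 36 to 41. The *Cbx7* promoter has neither motif, so no base is in capitals. It belongs to a RefSeq start inside the gene span given above and not to the outer end of that span.
Rnf2 (chr1:151500942-151501241, minus strand): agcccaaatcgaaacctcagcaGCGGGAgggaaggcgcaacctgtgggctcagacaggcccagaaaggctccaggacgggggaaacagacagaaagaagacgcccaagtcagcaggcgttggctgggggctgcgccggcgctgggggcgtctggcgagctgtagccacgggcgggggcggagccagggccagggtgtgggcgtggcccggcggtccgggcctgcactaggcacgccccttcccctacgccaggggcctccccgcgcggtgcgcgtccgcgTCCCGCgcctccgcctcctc
Bmi1 (chr2:18676768-18677067, plus strand): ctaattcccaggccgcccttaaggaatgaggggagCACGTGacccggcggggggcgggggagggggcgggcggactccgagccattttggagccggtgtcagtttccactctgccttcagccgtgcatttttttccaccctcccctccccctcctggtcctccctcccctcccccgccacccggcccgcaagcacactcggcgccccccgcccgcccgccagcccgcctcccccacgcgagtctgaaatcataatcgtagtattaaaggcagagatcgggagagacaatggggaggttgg
Cbx7 (chr15:79932597-79932896, minus strand): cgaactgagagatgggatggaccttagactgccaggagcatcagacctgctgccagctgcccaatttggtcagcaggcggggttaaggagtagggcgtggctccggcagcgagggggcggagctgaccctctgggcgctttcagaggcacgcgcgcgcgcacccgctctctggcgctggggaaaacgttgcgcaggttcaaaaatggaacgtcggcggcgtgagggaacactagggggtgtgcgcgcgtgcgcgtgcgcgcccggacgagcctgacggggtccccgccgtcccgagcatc

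Before the groups were compared, the levels of the 9 genes were put on one scale by dividing by the exon length of their coding transcripts (log2 RPKM, RPM per kb). *Pcgf6*, the PCGF subunit of the variant complex with MGA and L3MBTL2, was the most abundant in both groups, with a level of 4.70 ± 0.685 log2 RPKM in control (mean ± SD, n = 5) and 4.78 ± 0.445 in cryptorchid libraries (n = 7). *Ring1* was the lowest in both, at -0.01 ± 0.557 and -0.88 ± 1.07 log2 RPKM. Among 16637 genes with a length, the mean level of *Pcgf6* over all 12 libraries stood at percentile 84.4 and that of *Ring1* at percentile 20.3.

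Between these ends the control order was *Cbx2*, *Pcgf1*, *Cbx7*, *Rnf2*, *Bmi1*, *Cbx8* and *Pcgf2*. Neighbours in this order had overlapping ranges except *Pcgf2* and *Ring1* in the control group. Within a library, *Pcgf6* was above *Cbx2* and *Pcgf2* above *Ring1* in 5 of 5 control libraries, while *Cbx7* was above *Rnf2* in 2 of 5. In the cryptorchid group *Bmi1* was second by its mean and *Cbx2* sixth. There too the ranges of all neighbours overlapped, and only *Pcgf2* over *Ring1* kept its order in 6 of 7 libraries, the other neighbours doing so in 2 to 5.

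**Figure D1:**
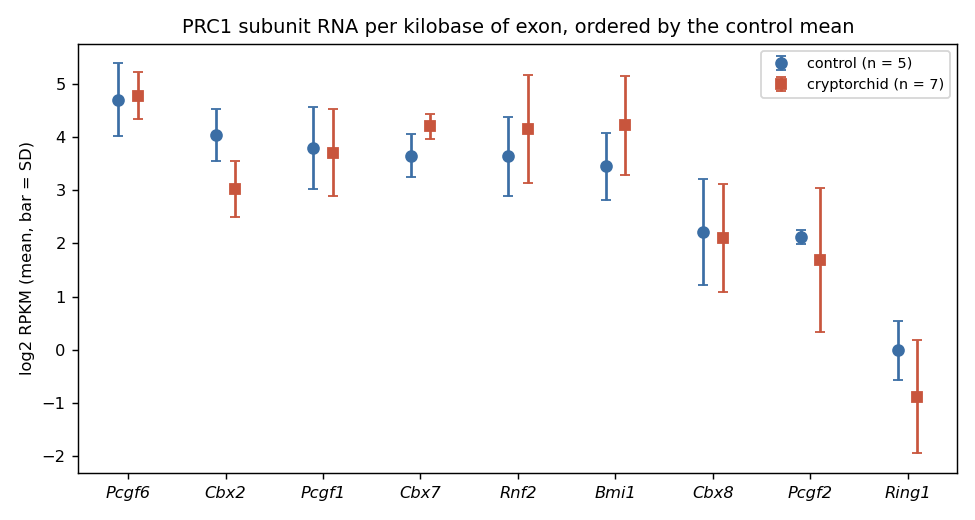
Mean log2 RPKM (y axis, bars are SD) of the 9 PRC1 genes (x axis, ordered by the control mean) in 5 control (circles) and 7 cryptorchid libraries (squares). *Pcgf6* is highest and *Ring1* lowest in both groups, and *Cbx2* goes from rank 2 to rank 6.

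The same scale shows how each protein family was made up. Of the RING family, *Rnf2* RNA made up 87.0% to 95.6% in control (median 92.7%) and 83.0% to 98.9% in cryptorchid libraries (median 97.1%). Of the 6 PCGF genes, *Pcgf5* and *Pcgf6* had the largest median shares in both groups (29.8% and 26.9% in control, 30.8% and 23.7% in cryptorchid libraries), and *Bmi1* had a median share of 10.7% and 18.2%. Of the summed level of *Cbx2*, *Cbx6*, *Cbx7* and *Cbx8*, *Cbx2* held 32.6% to 54.5% in control libraries (median 48.4%) and 18% to 32.2% in cryptorchid libraries (median 22.6%). The 2 ranges of this share did not overlap, but no background rate was computed for such shares. In log2 RPM, 0 of the 9 members, *Cbx2* included, had groups that did not overlap, against 0.839% of all genes tested. *Cbx7* held 25.9% to 61.7% (median 30.7%) and 33.3% to 69.7% (median 57.8%). The sum of these 4 CBX genes was 32.4 to 50.1 RPKM in control and 25.8 to 45.8 RPKM in cryptorchid libraries. These shares were computed after the values were seen and were not tested.

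In the comparison of cryptorchid with control libraries, 4 of the 9 genes had a higher and 5 a lower mean log2 RPM in the cryptorchid group. Their median log2 difference was -0.09, and that of all genes tested was 0.10. At 2-fold and an unadjusted *P*-value under 0.05 (limma), *Cbx2* was the only member called, on the lower side, where 2.36% of all genes were called. No member was called on the higher side, where 3.56% of all genes were. At an unadjusted *P*-value under 0.05 without the fold limit there were 2 members, *Cbx2* and *Cbx7*, against 9.48% of all genes. By the exact rank sum test at 0.05 there was 1 member, *Cbx2*, against 9.63% of all genes. After Benjamini-Hochberg adjustment over all genes limma called no member and 0.0118% of all genes (2 genes). No member had groups that did not overlap in log2 RPM, against 0.839% of all genes. The 8 spermatid markers, with a median log2 difference of -2.38, were lower in the same libraries' group as *Cbx2*, and their part in its difference was not tested.

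**Figure D2:**
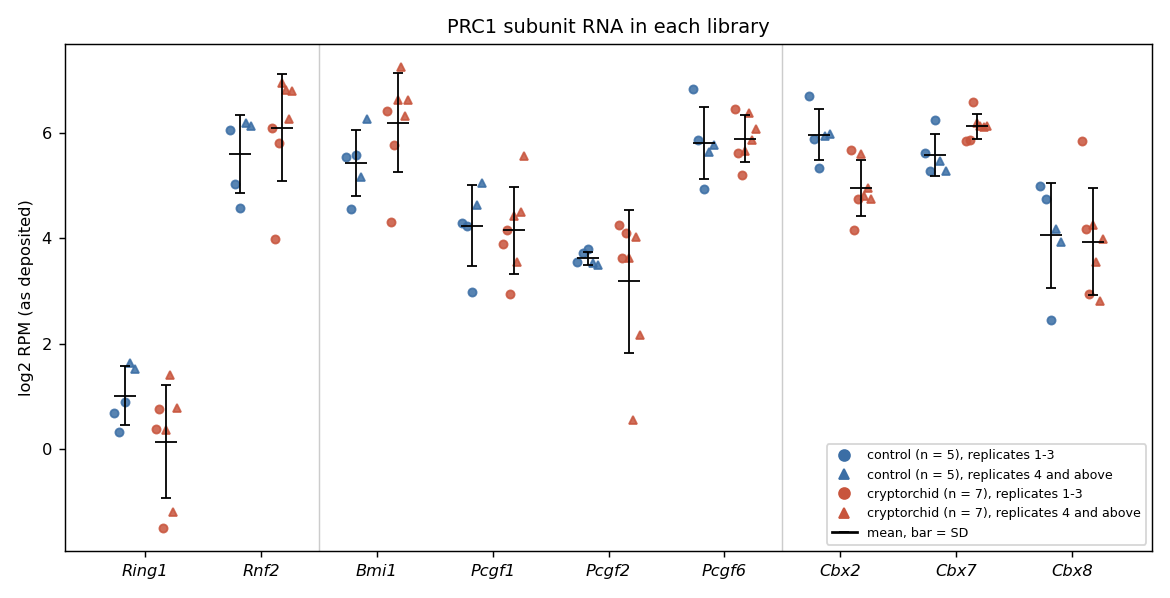
Deposited log2 RPM (y axis) of the 9 genes (x axis, RING, PCGF and CBX genes from left to right) in each library. Blue is control (n = 5), red is cryptorchid (n = 7), circles are replicates 1 to 3, triangles are replicates 4 and above, and bars are mean ± SD. All 7 cryptorchid libraries lie below the control median for *Cbx2* and above it for *Cbx7*.

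*Cbx2* encodes a chromodomain subunit that compacts chromatin, and it is known for its role in male sex determination. Its level in control replicates 1 to 5 was 6.70, 5.88, 5.33, 5.95 and 5.98 log2 RPM. In the cryptorchid group it ranged from 4.15 through a median of 4.80 to 5.68 log2 RPM, which is 17.7 to 51.3 RPM against 40.2 to 104 RPM in control. All 7 cryptorchid libraries were below the control median and 5 were below the lowest control library, and the 2 above it were replicates 1 and 4. The log2 difference, cryptorchid minus control, was -1.02 (SE 0.315, 95% CI -1.68 to -0.35), a level at 49.5% of control. The limma *P*-value was 0.00482 (adjusted *P* = 0.308) and the exact two-sided rank sum *P*-value was 0.0101 (adjusted *P* = 0.388). The difference was -1.11 within replicates 1 to 3 and -0.94 within replicates 4 and above, and the exact test made within these sets gave *P* = 0.0200. Each value rested on at least 95 reads. As the difference sits at the 2-fold limit, the call ended when control replicate 1 (-0.83), cryptorchid replicate 2 (-0.88), 3 (-0.98), 5 (-0.99) or 7 (-0.98) was left out. In bulk libraries such as these, fewer cells with the RNA and less RNA per cell cannot be told apart.

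*Cbx7*, the chromodomain subunit that is the main CBX protein of pluripotent stem cells and a repressor of the Ink4a locus, had the opposite direction. Its level in control replicates 1 to 5 was 5.62, 5.28, 6.24, 5.46 and 5.27 log2 RPM. In the cryptorchid group it ranged from 5.85 through a median of 6.13 to 6.58 log2 RPM, with an SD of 0.243, the smallest among the 9 genes in that group. All 7 cryptorchid libraries were above the control median, but control replicate 3 was above all of them except replicate 3. The log2 difference was 0.55 (SE 0.248, 95% CI 0.03 to 1.07), a level at 146% of control (limma *P* = 0.0398, adjusted *P* = 0.497, exact rank sum *P* = 0.0732). Within the sets of replicates the difference was 0.38 and 0.78 (exact *P* = 0.0533). Of the 12 runs that left out 1 library, 3 stayed past limma's unadjusted threshold, and the difference was 0.72 without control replicate 3.

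*Cbx8*, whose protein is found in canonical complexes with roles in differentiating cells, did not pass the test. Control replicates 1 to 5 had 5.0, 4.75, 2.46, 4.17 and 3.93 log2 RPM, and the cryptorchid libraries ranged from 2.81 through 3.99 to 5.84. The groups overlapped almost entirely, with control replicate 3 lowest of all and cryptorchid replicate 1 highest. The log2 difference was -0.13 (95% CI -1.25 to 1.0, limma *P* = 0.816, adjusted *P* = 0.958, exact *P* = 0.876), an interval that reaches past 2-fold in the lower direction and to 1.99-fold in the higher.

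**Figure D3:**
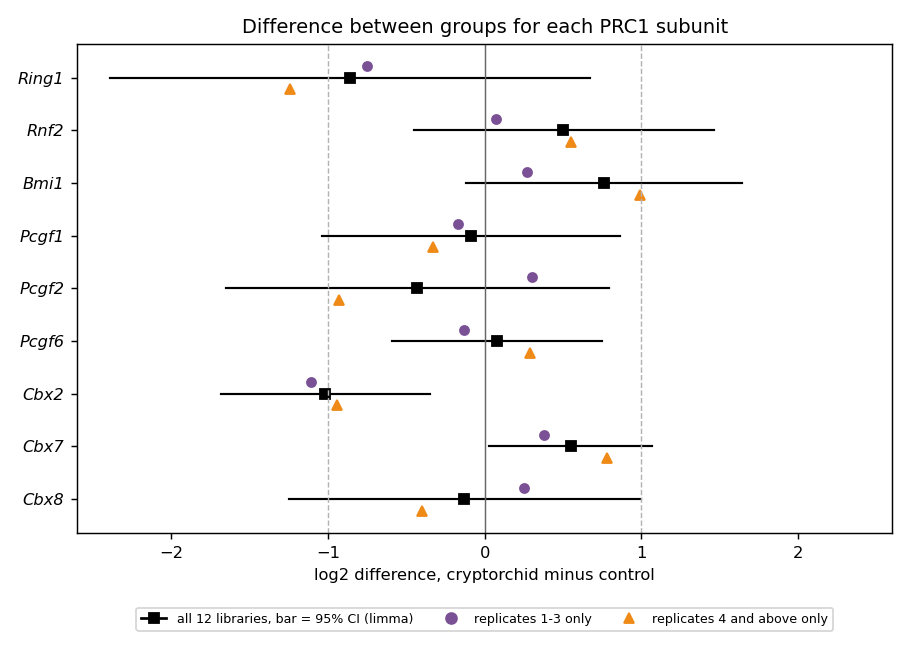
Log2 difference, cryptorchid minus control (x axis), of each PRC1 gene (y axis). Squares are the fit over all 12 libraries with 95% CI, circles the difference within replicates 1 to 3, triangles that within replicates 4 and above, and dashed lines mark 2-fold. The intervals of *Cbx2* (-1.68 to -0.35) and *Cbx7* (0.03 to 1.07) leave out 0, and those of the other 7 genes include it.

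Since a ratio of 2 genes within a library does not depend on how the library was scaled, 5 pairs of members were also compared as ratios. The log2 ratio of *Cbx2* to *Cbx7* was 1.08, 0.60, -0.91, 0.49 and 0.71 in control replicates 1 to 5. In the cryptorchid group it ranged from -1.84 through a median of -1.33 to -0.17. Thus *Cbx2* had more reads than *Cbx7* in 4 of 5 control and 0 of 7 cryptorchid libraries, control replicate 3 being the exception. The coding transcripts of the 2 genes have almost the same exon length (3807 and 3790 bases). The mean ratio differed by -1.57 on the log2 scale, to 0.338 of the control ratio, with an exact two-sided rank sum *P* = 0.0101 (0.0505 after Benjamini-Hochberg adjustment over the 5 pairs). Within the sets of replicates the difference was -1.50 and -1.72, with an exact *P* = 0.0200 (0.1 adjusted). In the 12 runs that left out 1 library it stayed between -1.89 and -1.39 with exact *P*-values of 0.00606 to 0.0242.

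**Figure D4:**
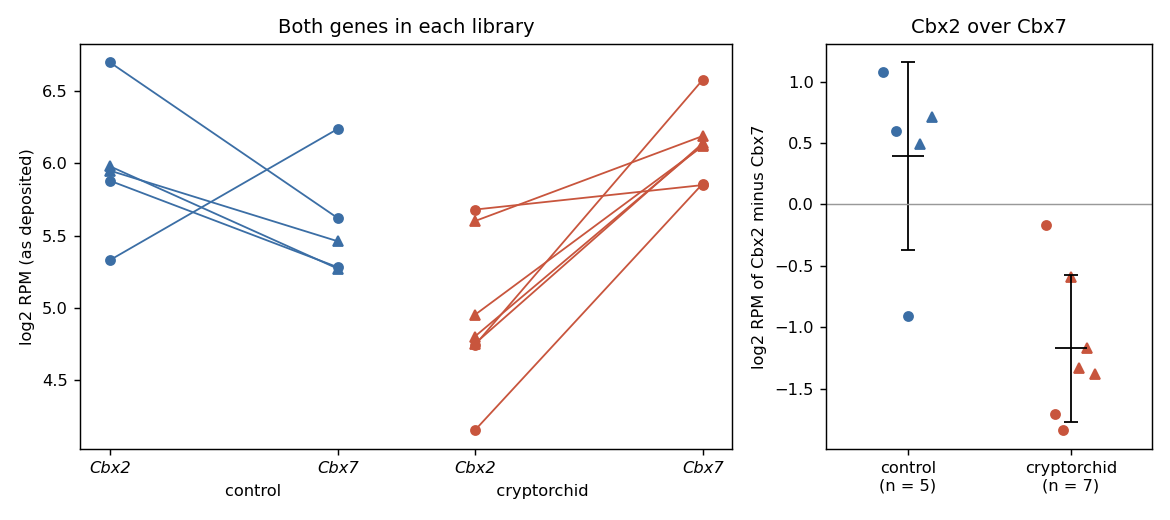
Left, deposited log2 RPM (y axis) of *Cbx2* and *Cbx7* (x axis) joined by a line for each library, control in blue and cryptorchid in red. Right, the log2 ratio of *Cbx2* to *Cbx7* in each library with mean ± SD. Circles are replicates 1 to 3 and triangles replicates 4 and above, and all 7 cryptorchid libraries lie below 0 along with control replicate 3 at -0.91.

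The RING genes encode the catalytic subunits. *Rnf2*, the main E3 ligase of the complex and the one required in the early embryo, had 6.06, 5.04, 4.57, 6.18 and 6.13 log2 RPM in control replicates 1 to 5 and ranged from 3.99 through 6.27 to 6.95 in the cryptorchid group. Of the 7 cryptorchid libraries 4 were above the highest control library, and replicate 2 was below the lowest. The log2 difference was 0.50 (SE 0.454, 95% CI -0.45 to 1.46, limma *P* = 0.283, adjusted *P* = 0.761, exact *P* = 0.268). With 1 library left out it ran from 0.25 without control replicate 3 to 0.86 without cryptorchid replicate 2, and of these 12 runs the latter alone passed limma's unadjusted threshold. Within the sets of replicates it was 0.07 and 0.55, the second past limma's unadjusted threshold, and with a term for the set it was 0.29.

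*Ring1*, its paralogue, was near the limit of detection. It had 0.68, 0.32, 0.90, 1.63 and 1.53 log2 RPM in control replicates 1 to 5 and from -1.49 through 0.38 to 1.40 in the cryptorchid group. These levels rest on 13 to 39 reads per control library and 2 to 29 reads per cryptorchid library, and the lowest values are those of cryptorchid replicates 3 and 6 with 3 and 2 reads. The log2 difference was -0.86 (95% CI -2.39 to 0.67, limma *P* = 0.250, adjusted *P* = 0.740, exact *P* = 0.202), and a 2-fold lower level lies inside this interval.

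The log2 ratio of *Rnf2* to *Ring1* was above 0 in all 12 libraries, at 3.67 to 5.38 in control and 3.22 to 7.46 in cryptorchid libraries. Its mean differed by 1.37 (exact *P* = 0.0480, 0.120 adjusted over the 5 pairs), with differences of 0.82 and 1.78 and an exact *P* = 0.113 within the sets of replicates. Leaving out 1 library gave exact *P*-values of 0.00433 (without cryptorchid replicate 2) to 0.0823, and 1 of the 12 runs was under 0.05.

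Of the PCGF genes that build canonical complexes, *Bmi1*, required for self-renewal of several adult stem cells, had the largest higher mean among the 9 genes. Its level was 5.55, 4.55, 5.58, 5.17 and 6.27 log2 RPM in control replicates 1 to 5, and it ranged from 4.31 through 6.42 to 7.25 in the cryptorchid group. Of the 7 cryptorchid libraries 5 were above the highest control library, while replicate 2 was below the lowest. The log2 difference was 0.76 (SE 0.418, 95% CI -0.12 to 1.64), which did not pass (limma *P* = 0.0851, adjusted *P* = 0.591, exact *P* = 0.0732). It was 0.27 within replicates 1 to 3 and 0.99 within replicates 4 and above. Without cryptorchid replicate 2 it was 1.08, past both the 2-fold limit and limma's unadjusted threshold. The unadjusted threshold was also passed without control replicate 5 (0.97), in replicates 4 and above alone and with array weights (0.99), and in the other 10 runs that left out 1 library it was not.

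*Pcgf2* (Mel18), the paralogue of *Bmi1*, was the steadiest gene in control, with 3.55, 3.72, 3.79, 3.54 and 3.50 log2 RPM in replicates 1 to 5. The cryptorchid libraries ranged from 0.55 through 3.63 to 4.25, where the lowest were replicate 5 with 5 reads and replicate 7 with 21 reads. The other 5 cryptorchid libraries, at 3.62 to 4.25, were all above the lowest control library. The log2 difference was -0.43 (95% CI -1.65 to 0.79, limma *P* = 0.471, adjusted *P* = 0.854, exact *P* = 0.639), and it was 0.01 without cryptorchid replicate 5. The log2 ratio of *Bmi1* to *Pcgf2* was 0.83 to 2.77 in control and 0.68 to 6.70 in cryptorchid libraries, a difference of 1.19 (exact *P* = 0.268, 0.429 adjusted), which was 0.58 without cryptorchid replicate 5.

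Among the members, *Pcgf1* and *Pcgf6*, which belong to variant complexes, had the smallest mean differences. *Pcgf1*, whose complex with KDM2B and BCOR binds CpG islands, had 4.29, 4.24, 2.99, 4.64 and 5.05 log2 RPM in control replicates 1 to 5 and 2.95 through 4.16 to 5.56 in the cryptorchid group. The difference was -0.09 (95% CI -1.04 to 0.86, limma *P* = 0.846, adjusted *P* = 0.964, exact *P* = 0.639). *Pcgf6*, whose complex is known to silence germ cell genes in embryonic stem cells, had 6.84, 5.87, 4.93, 5.63 and 5.77 log2 RPM in control replicates 1 to 5 and 5.21 through 5.86 to 6.45 in the cryptorchid group, all within the control range. Its difference was 0.08 (95% CI -0.59 to 0.75, limma *P* = 0.808, adjusted *P* = 0.956, exact *P* = 0.876), so that a change of 2-fold in either direction lies outside the interval. The log2 ratio of *Pcgf6* to *Pcgf1* differed by 0.17 (exact *P* = 0.876, 0.876 adjusted) and that of *Cbx8* to *Cbx7* by -0.68 (exact *P* = 0.343, 0.429 adjusted). The latter was -1.24 without control replicate 3 and -0.43 without control replicate 2.

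Across libraries the members did not vary as one group. Over the 36 pairs of members, Pearson's r of log2 RPM ranged from -0.627 (*Cbx2* and *Cbx7*) to 0.825 (*Rnf2* and *Bmi1*) with a median of 0.127, and 22 pairs were positive. The points are the 12 libraries of both groups, which differ in set and depth, so these are descriptions. For *Rnf2* and *Bmi1*, Spearman's rho was 0.818, r was 0.761 within replicates 1 to 3 and 0.703 within replicates 4 and above, and r of the deviations from the group means was 0.814. Without the 2 libraries farthest from the median of *Rnf2* it was 0.845. For *Cbx2* and *Cbx7*, rho was -0.699, r was -0.538 and -0.813 within the sets, and r of the deviations from the group means was -0.255.

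**Figure D5:**
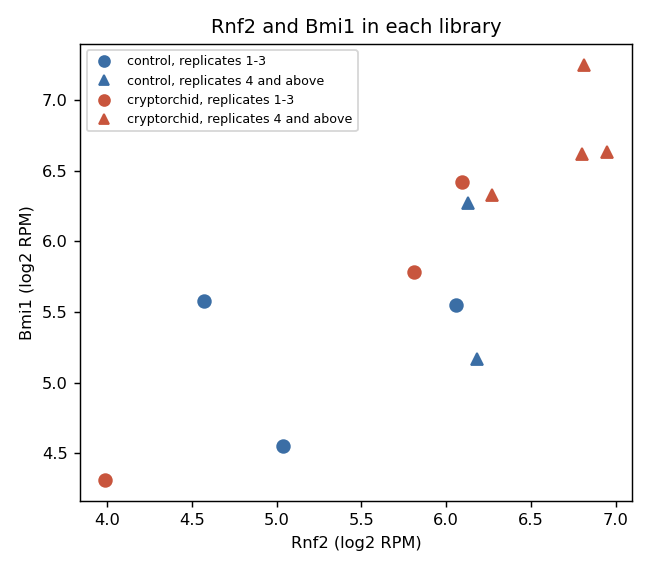
*Bmi1* (y axis) against *Rnf2* (x axis), both in deposited log2 RPM, in the 12 libraries. Blue is control, red is cryptorchid, circles are replicates 1 to 3 and triangles replicates 4 and above, and Pearson's r over all points is 0.825.

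Among the other 16931 genes tested, the one most like each member by Pearson's r over the 12 libraries was *Lrrc41* for *Cbx2* (r = 0.945), *Socs5* for *Cbx7* (r = 0.955) and *Arf1* for *Cbx8* (r = 0.949). It was *Kiz* for *Rnf2* (r = 0.959), *BC025920* for *Ring1* (r = 0.904), *Inpp5f* for *Bmi1* (r = 0.957), *Tomm40l* for *Pcgf2* (r = 0.853), *Trappc2* for *Pcgf1* (r = 0.977) and *Anapc4* for *Pcgf6* (r = 0.952). Each r is the largest of 16931 values over 12 libraries that differ in set and depth, so these are descriptions and were not tested. No member was most like another member, which says little, since the members are few among so many genes.

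The other genes of the pathway were counted in the same fit. Of 47 such genes, 4 (8.51%) had an unadjusted limma *P*-value under 0.05, all of them higher in the cryptorchid group, 1 was also past 2-fold, and after adjustment there were 0. The share is near the 9.48% of all genes. Of 6 other canonical genes, 1 passed the unadjusted test, and the median difference was 0.31, against 0.10 for all genes. This was *Cbx6*, a CBX gene known from neurons, with 1.67 ± 1.55 log2 RPM in control (SD, n = 5) and 3.15 ± 0.799 in cryptorchid libraries (n = 7), a log2 difference of 1.48 (limma *P* = 0.0404, adjusted *P* = 0.501, exact *P* = 0.106), on 20 to 146 reads in a library. Its exons overlap those of *Npcd* on the same strand by 563 bases, so its reads are uncertain. *Scmh1*, which encodes a further subunit of canonical complexes, had 6.97 ± 0.308 and 7.38 ± 0.473 log2 RPM, a log2 difference of 0.41 (limma *P* = 0.145, adjusted *P* = 0.663, exact *P* = 0.106).

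Of the 26 other genes of variant complexes, 2 passed the unadjusted test and the median difference was 0.19. *Kdm2b*, whose CXXC domain brings the *Pcgf1* complex to CpG islands, had 6.90 ± 0.265 and 7.53 ± 0.326 log2 RPM, a log2 difference of 0.63 (limma *P* = 0.0160, adjusted *P* = 0.415, exact *P* = 0.0177). Its exons overlap those of *Rnf34* and *A930024E05Rik* on the other strand by 627 and 199 bases and those of *Gm44574* on the same strand by 124 bases, so its reads are uncertain. *Cbx3*, which encodes the heterochromatin protein HP1 gamma of the *Pcgf6* complex, had 5.31 ± 0.303 and 5.90 ± 0.430, a log2 difference of 0.58 (limma *P* = 0.0450, adjusted *P* = 0.517, exact *P* = 0.0303). The largest difference of this list was that of *Bcor*, a scaffold of the *Pcgf1* complex, at -0.75 (limma *P* = 0.199, adjusted *P* = 0.708, exact *P* = 0.432), with -1.63 in replicates 1 to 3 and -0.11 in replicates 4 and above.

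Of the 11 genes that act in the removal of H2AK119ub, 1 passed the unadjusted test, and the median difference was -0.06. This was *Mbd5*, a partner of the BAP1 deubiquitinase complex, with 7.09 ± 0.579 and 7.87 ± 0.496 log2 RPM, a log2 difference of 0.78 (limma *P* = 0.0206, adjusted *P* = 0.432, exact *P* = 0.0480), with 136 bases of exon shared with *Orc4* on the other strand. *Foxk1*, which recruits the same complex, had 0.52 (limma *P* = 0.179, adjusted *P* = 0.693, exact *P* = 0.202). Of 4 cell cycle inhibitor genes that are classic PRC1 targets, none passed the unadjusted limma test, and the median difference was 0.41. *Cdkn2b* (p15) had 2.25 ± 0.258 and 2.93 ± 0.518 log2 RPM, a log2 difference of 0.68 (limma *P* = 0.157, adjusted *P* = 0.675, exact *P* = 0.0303), and *Cdkn1c* (p57), whose exons share 625 bases with the antisense gene *Gm44732*, a log2 difference of 0.48 (limma *P* = 0.323, adjusted *P* = 0.783, exact *P* = 0.432). *Cdkn2a*, the gene of the Ink4a locus, had 3.19 ± 2.32 and 2.83 ± 1.43 log2 RPM, a log2 difference of -0.37 (limma *P* = 0.688, adjusted *P* = 0.924, exact *P* = 0.755). The difference was 0.31 in replicates 1 to 3 and -1.93 in replicates 4 and above. *Cdkn1a* had a log2 difference of 0.35 (limma *P* = 0.622, adjusted *P* = 0.905, exact *P* = 0.639), with 1.69 and -1.64 in these sets. Both genes are named here after their values were seen.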

How the data were processed

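RNA was measured in 5 control and 7 cryptorchid libraries, grouped by GEO's labels. The authors trimmed reads (Trim Galore 0.6.6, with FastQC 0.11.8), mapped them to mm10 with HISAT2 2.1.0 and used SeqMonk to count those in protein-coding genes, and the deposited table gives log2 RPM for 21859 genes. Datasets with excessive duplicates had been excluded by the authors. Smart-seq2 amplifies by PCR and carries no molecular identifiers, so read numbers and floors cover counting error only. Read numbers were recovered from the steps of the deposited log2 values, which were whole (within 0.05) for 100% of values under 1000 reads, with genes without reads given 0.9 reads. Reads on genes were 74.5% to 99.9% of the library size to which the RPM values were scaled, with the lower shares in replicates 1 to 3. Replicate pairs differed by more than sampling noise (chi-square per degree of freedom 12.8 to 253 over 31 pairs), which separates them from 1 library deposited again but does not show that they came from different animals.

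Groups were compared with limma 3.58.1 in R 4.3.3 (lmFit, eBayes with trend) on the deposited log2 values of 16932 genes with log2 mean RPM above -1, without pairing, with Benjamini-Hochberg adjustment over all genes. The authors called genes with edgeR at 2-fold and an unadjusted *P*-value of 0.05, and the same limits were used here. Single genes and ratios were tested by exact two-sided enumeration of the rank sum over 792 divisions (300 within the sets of replicates), where the smallest *P*-values possible are 0.00253 and 0.00667 (Python 3.11.15, numpy 2.4.6, pandas 2.3.3, scipy 1.17.1, plots with matplotlib 3.10.9). The limma script was tested on simulated data. Genes, exon lengths and overlaps are from GENCODE vM21 (GRCm38, the build of mm10), and promoters from RefSeq.

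The members and lists were chosen with earlier results of these data known. Named were all members, other pathway genes with an unadjusted *P*-value under 0.05 or among the 2 largest differences of their list, and the gene most like each member. *Cdkn1a* and *Cdkn2a* were added after their values were seen. A pathway gene and a marker gene are not reported here and were left out of their lists. *Cbx6*, *Pcgf3* and *Pcgf5* entered the family shares, which were chosen after seeing the data, like the tests within sets of replicates and the use of the exact test as an alternative for each member. The alternatives were median centring, quantile normalization, log2(RPM + 1), log2(RPM + 0.1), a common floor, no filter, a filter at 2, array weights, voom on recovered reads, a term for the set of replicates, a block for replicate number, each set of replicates alone, ratios of mean RPM, and each library left out.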

Additional observations from a re-analysis of the deposited data

Results flagged for a closer look

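In 28 groups of values examined (9 members and 5 ratios in each of the 2 groups), 2 held a library that stood apart from the rest of its group by Dixon's criterion, and chance flags about 1 group in 20. *Rnf2* in cryptorchid replicate 2 was 3.99 log2 RPM, while the other 6 cryptorchid libraries were at 5.81 to 6.95 (gap over range 0.614, limit 0.568). *Bmi1* and *Cbx2* were also lowest in the same library, at 4.31 and 4.15 log2 RPM, and its limma array weight was 0.405. The log2 ratio of *Cbx8* to *Cbx7* in control replicate 3 was -3.79, while the other 4 control libraries were at -1.33 to -0.53 (gap over range 0.752, limit 0.710). The same library had the lowest *Cbx2* and the highest *Cbx7* of the control group, at 5.33 and 6.24 log2 RPM, and limma's array weights gave it the lowest weight of the 12 libraries, 0.368. No cause was tested for either library.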

How the results depend on the processing

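The *Cbx2* difference kept its direction under every alternative run and *P* under 0.05 in all but replicates 1 to 3 alone (-1.11). It ran from -1.18 to -0.83 with 1 library left out. The *Cbx7* difference kept its direction and ran from 0.47 to 0.72 with 1 library left out. Its *P*-value was above 0.05 with median centring (0.48), quantile normalization (0.51), voom (0.53), replicates 1 to 3 alone (0.38) and both exact tests (0.55). The ratio of *Cbx2* to *Cbx7* was -1.50 and -1.72 within each set alone, where the smallest possible exact *P*-values are 0.1 and 0.133, and ran from -1.89 to -1.39 with 1 library left out. The cause of these changes was not tested.

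Members past 2-fold and 0.05 numbered 0 under log2(RPM + 1), array weights, the replicate block and either set alone, and 0 to 1 with 1 library left out. Members with *P* under 0.05 numbered 1 with median centring, quantile normalization and voom. They numbered 0 in replicates 1 to 3 alone, 4 in replicates 4 and above alone, and 1 to 4 with 1 library left out. Of the 16932 genes tested, 1606 had *P* under 0.05 in the main fit, and 1669, 1702 and 1836 with those 3 alternatives. There were 633 in replicates 1 to 3 alone and 2934 in replicates 4 and above alone, so the member counts in the 2 sets went the same way as those of all genes. With 1 library left out there were 1228 to 2192. Over all genes, calls were 603 higher and 399 lower. There were 385 higher with a filter at 2, which leaves fewer genes to test, and 287 in replicates 1 to 3 alone. Higher calls numbered 882 with array weights, 867 without a filter, which tests more genes, 785 with voom and 778 with the replicate block. There were 703 lower with array weights, 900 with the replicate block, 635 with a term for the set of replicates and 705 in replicates 4 and above alone. Lower calls numbered 304 with a filter at 2 and 345 in replicates 1 to 3 alone. Leaving out 1 library gave 501 to 750 higher and 280 to 572 lower. The share of calls on the higher side was 60.2%, 51.5% with median centring and 45.7% with quantile normalization, and over all alternatives it ran from 45.4% (replicates 1 to 3 alone) to 72.7% (without control replicate 5).

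Signs turned for members near 0. With 1 library left out *Pcgf1* ran from -0.40 to 0.11, *Pcgf2* from -0.61 to 0.01, *Pcgf6* from -0.14 to 0.34, *Cbx8* from -0.53 to 0.11 and the *Pcgf6* to *Pcgf1* ratio from -0.04 to 0.41. *Pcgf1* became 0.01 or 0.11 (without control replicate 4 or 5, cryptorchid 3 or 5), *Pcgf2* 0.30 in replicates 1 to 3 alone and 0.01 without cryptorchid replicate 5, and *Pcgf6* -0.13 in replicates 1 to 3 alone and -0.14, -0.01 and -0.0022 without control replicate 3, cryptorchid replicate 1 and cryptorchid replicate 5. *Cbx8* became 0.09 with the block, 0.25 in replicates 1 to 3 alone, and 0.11, 0.05, 0.04 and 0.06 without control replicate 1 or 2, cryptorchid 3 or 6. The ratio of *Bmi1* to *Pcgf2* was -0.03 in replicates 1 to 3 alone, and that of *Pcgf6* to *Pcgf1* -0.04 and -0.01 without control or cryptorchid replicate 5. *Ring1* gave no value under the filter at 2.

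With the replicate number as a block, *Cbx2* was -0.98 (limma adjusted *P* = 0.0290), the *Cbx2* to *Cbx7* ratio -1.52 (exact *P* = 0.0625, the smallest possible), *Rnf2* 0.33, *Bmi1* 0.65 (unadjusted limma *P* = 0.0169) and genes at an adjusted *P*-value under 0.05 numbered 949 against 2. With array weights they numbered 476 and with a term for the set of replicates 46. Deviations of same-numbered libraries correlated at 0.0488 to 0.411, and 4 of 5 control libraries correlated best with their own number, a hint from the data and not from the design.

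Depth limits *Ring1* (2 to 39 reads) and *Pcgf2* in cryptorchid replicate 5 (5 reads).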
